A study of Rattus norvegicus with 12 samples.

Results

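Actinomycin D (ActD), which blocks transcription, was given to hippocampal neuron cultures treated with BiC/4AP, a treatment used to make the network fire, and RNA levels were read on 6 arrays that form 3 pairs, with and without the drug, at 5, 30 and 60 min. They were chosen by their labels, as the BiC/4AP arrays among the 12 arrays of the series. The cultures came from Sprague Dawley rat embryos (embryonic day 18.5) and were grown for 12 days above a glial feeder layer. The conditions were BiC/4AP + ActD and BiC/4AP, with Block + ActD and Block (cultures kept silent) used here only for comparison, and each condition and time has 1 array. Every culture, controls included, had spent 3 h in a silencing mixture of the sodium channel blocker TTX (100 nM) and the glutamate receptor blockers CNQX (40 µM) and D-APV (50 µM). Activity was then evoked with bicuculline (BiC, 50 µM) and 4-aminopyridine (4AP, 500 µM), and ActD was used at 25 µM, with its solvent DMSO in the cultures that had none. The times are those of the labels, which give them as the length of treatment. In the study's methods the stimulus itself was short and the cells were collected later, after some minutes in ActD beforehand. RNA of 3 coverslips was pooled for each array per the labels, and the membranes carried human complementary DNA (cDNA) clones, so that rat RNA was read by human probes, and a spot may also bind related transcripts.

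ActD inserts itself into DNA and stops RNA polymerases. Once it is present, an mRNA is expected to be lost at the pace of its own decay, fast for the messages of many transcription factors and slow for those of ribosomal, cytoskeletal and metabolic proteins. Bicuculline blocks the inhibitory GABA-A receptor and 4-aminopyridine blocks potassium channels, and together they drive bursts of firing, which in hippocampal neurons is known to switch on immediate early genes such as FOS and ARC. The comparison therefore asks which transcripts of active neurons differ in level once new synthesis is blocked.

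Of 9600 spots, 8496 carry 1 gene symbol, and 7300 of these had a mean log2 intensity above 5 over the 12 arrays. These 7300 clones stand for 5545 genes. The clone just inside the limit had a mean of 5.00048 and the one just outside a mean of 4.99943, and 1196 named spots were not above it. Levels below are log2 intensities after each array was brought to the same mean and standard deviation, and a change is the level with ActD minus the level without it, in log2 units. Median raw intensity on the 6 arrays ran from 57.3 in BiC/4AP at 30 min to 106 in BiC/4AP at 5 min. The level of each clone on the array with ActD correlated with that on its partner at Pearson's r of 0.978 at 5 min, 0.969 at 30 min and 0.986 at 60 min (7300 clones, which are not independent replicates). The array of BiC/4AP + ActD at 5 min and that of BiC/4AP at 30 min stood apart in groups of abundant transcripts, as given with those groups below.

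No clone passed the test over the 3 pairs. The fit in limma, with time as a block, gave 0 of 9600 spots (0%) an adjusted p under 0.05, and 11 of the 7300 named clones had an unadjusted p under 0.05, 5 lower and 6 higher with ActD, beside 0.76% and 1.07% of all spots (1.83% in either direction). The lowest adjusted p of a named clone was 0.99996. Precision was low, the median 95% interval of a named clone reaching 0.504 log2 to either side. The p-values rest on how far the 3 pairs disagreed and, through limma, on a spread pooled over all spots. Each pair is of another time, so their disagreement also holds any change of the ActD effect with time. Since the labels do not tie the arrays to separate cultures, the spread may otherwise be technical. Lower in 3 of 3 pairs were 594 of the 7300 clones (8.14%), where 8.08% of all spots were, and higher in 3 of 3 were 408 (5.59%), where 7.08% of all spots were.

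The changes at one time were not those at another. Across the 7300 clones, the change at 5 min had a Spearman correlation of -0.131 with the change at 30 min and of -0.309 with the change at 60 min, and those at 30 and 60 min correlated at -0.245 (each change comes from its own pair of arrays, and the clones share depth and base composition and are not independent). By z-fold, the change divided by its standard deviation over all spots, with the study's threshold of 1.4, 28 named clones were higher and 145 lower at 5 min, beside 2.68% and 3.85% of all spots. At 30 min 257 were higher and 148 lower (all spots 5.44% and 4.22%), and at 60 min 110 were higher and 43 lower (3.58% and 2.68%). The threshold stood for a change of 0.811 log2 at 5 min, 0.864 at 30 min and 0.707 at 60 min, and 0 clones were past it in the same direction at all 3 times. These counts come from 1 array against 1, with no replicate check. The split at 5 min depended on the scaling. It was 135 higher and 225 lower after quantile normalization, 53 and 120 after median centring, 50 and 105 after spot order was corrected for, and 398 and 665 when the 10th percentile of an array was added to its intensities. That last setting gave 568 higher and 376 lower at 60 min.

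Genes with several clones allow a change to be read from more than 1 spot. A gene such as TUBA1B, an alpha tubulin of microtubules, was spotted as 13 clones, and 1215 genes had at least 2. Over those genes the changes of the first 2 clones correlated only weakly (Spearman 0.125 at 5 min, 0.120 at 30 min and 0.135 at 60 min). Among the 1215 genes, at least 2 clones were past the threshold in the same direction for 12 genes lower and 0 higher at 5 min, 3 lower and 12 higher at 30 min, and 0 lower and 2 higher at 60 min. These genes were picked out after their values were seen. Clones that carry the same symbol are meant to report the same RNA. The mean levels of the first 2 clones, however, also correlated only weakly (Spearman 0.127). How well each spot reads its named gene was not tested. Such clones were read on the same 2 arrays, and those of related genes can bind each other's RNA, so their accord is no replicate of the condition.

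**Figure D1:**
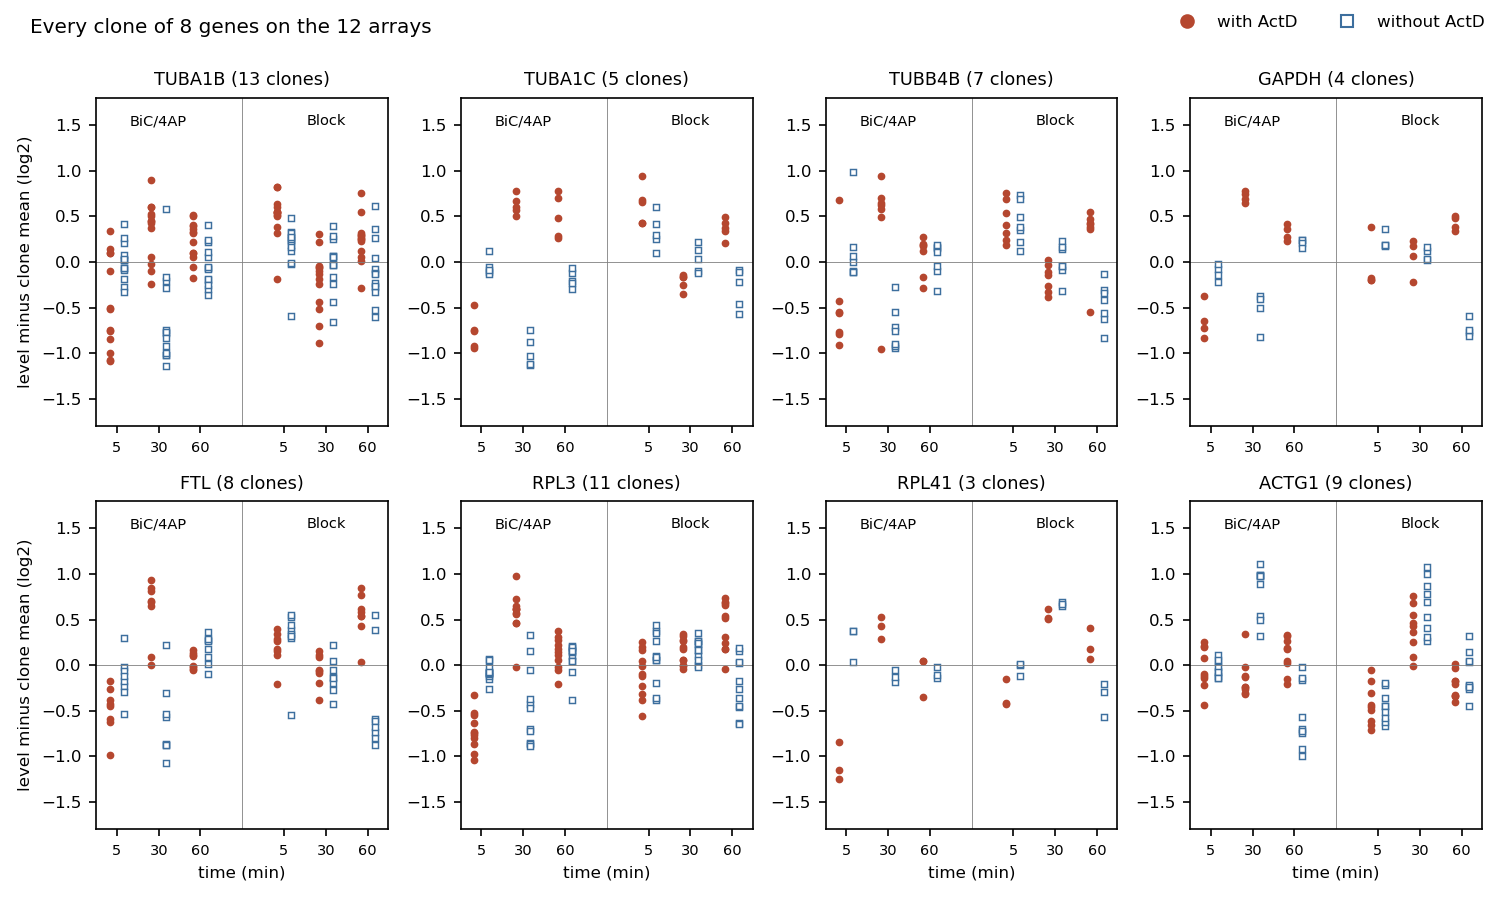
Level of every clone of 8 genes on the 12 arrays, as log2 level minus that clone's own mean over the arrays, by time in min, with BiC/4AP cultures left and Block cultures right of the line. Filled circles are arrays with ActD and open squares arrays without. At 30 min all 5 TUBA1C clones and all 4 GAPDH clones lie higher with ActD than without in active cultures, whereas 8 of 9 ACTG1 clones lie lower.

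By the median of their clones, tubulin messages were higher with ActD at 30 min and lower at 5 min. All 5 clones of TUBA1C, another alpha tubulin, were past the threshold at 30 min, with changes of 1.36 to 1.91, and their median level was 6.28, 7.87 and 7.81 in BiC/4AP + ActD at 5, 30 and 60 min, against 7.08, 6.18 and 7.14 in BiC/4AP. The array of BiC/4AP at 30 min held the lowest of these 6 values and that of BiC/4AP + ActD at 5 min the next. TUBB4B, a beta tubulin, had 7.49, 8.84 and 8.22 with ActD, against 8.03, 7.30 and 8.10 without it, and 6 of its 7 clones were past the threshold at 30 min. TUBA1B had 7.53, 8.67 and 8.47 with ActD, against 8.36, 7.34 and 7.96 without, with 9 of 13 clones higher past the threshold at 30 min and 5 of 13 lower past it at 5 min. So for each of these 3 tubulins the medians of the pair at 5 min and of the pair at 30 min differed in opposite directions. The clones were not uniform. For TUBA1B 4 of 13, its brightest, were above 0 at 5 min and 2 of 13 were below 0 at 30 min, as was 1 of 7 for TUBB4B.

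GAPDH, the glycolytic dehydrogenase that often serves as a loading control, was likewise lower with ActD at 5 min and higher at 30 min. The median of its 4 clones was 6.63, 8.08 and 7.64 in BiC/4AP + ActD at 5, 30 and 60 min, against 7.16, 6.77 and 7.55 in BiC/4AP. All 4 clones were higher with ActD at 30 min, with a median change of 1.17, and lower with it at 5 min, with changes of -0.70 to -0.29. FTL, the ferritin light chain that stores iron, had 6 of 8 clones higher past the threshold at 30 min and a median of 7.10, 8.18 and 7.49 with ActD, against 7.42, 6.80 and 7.60 without. PSMB4, a proteasome subunit, had 3 of 8 such clones, and DPP3, a dipeptidase, 2 of 2. None of these genes reached an unadjusted p under 0.05 over the 3 pairs in any clone, the lowest being 0.180 for a TUBA1C clone (limma).

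The gamma actin gene ACTG1 ran the other way at 30 min. Its 9 clones had a median level of 8.66, 8.74 and 9.03 in BiC/4AP + ActD at 5, 30 and 60 min, against 8.89, 9.68 and 8.41 in BiC/4AP. At 30 min 6 of 9 clones were lower past the threshold (median change -1.11), and at 60 min 5 of 9 were higher past it (0.74). Over the 6 scalings that were run, the median change of ACTG1 at 30 min stayed between -1.11 and -1.01, that of TUBA1C between 1.44 and 1.62, and that of GAPDH between 0.97 and 1.20.

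The silenced cultures, which share no array with these pairs, showed the higher values of GAPDH and FTL at another time. In Block + ActD at 5, 30 and 60 min the GAPDH median was 7.24, 7.36 and 7.72, against 7.58, 7.38 and 6.52 in Block, a median change of 1.12 at 60 min and 0.03 at 30 min. FTL had a median change of 1.21 at 60 min and of 0.07 at 30 min there. TUBA1C differed, with median changes of 0.33, -0.24 and 0.592 at 5, 30 and 60 min in silenced cultures, against -0.66, 1.62 and 0.585 in active cultures. ACTG1 was lower with ActD at 30 min in both states, with a median change of -0.28 in silenced cultures. Across all 7300 clones, the change at 30 min in active cultures correlated with the change at 60 min in silenced cultures at a Spearman coefficient of 0.411, more closely than with the change at 30 min in silenced cultures (0.166). Of the 257 clones higher by z-fold at 30 min in active cultures, 239 (93.0%) were above 0 at 60 min in silenced cultures, where 50.6% of all 7300 clones were. The silenced cultures did not enter the choice of these clones. Their median level was 7.11, 6.97 and 7.48 in Block + ActD at 5, 30 and 60 min, against 7.29, 7.03 and 6.59 in Block. These clones read lowest in BiC/4AP at 30 min (6.405), which entered their choice, and next lowest in Block at 60 min. Both arrays also had the lowest median raw intensity of the series, 57.3 and 52.6, where their partners with ActD had 74.1 and 80.9. The array of BiC/4AP + ActD at 5 min was brighter (81.8), yet these clones had a median of 6.63 there. Whether the dimness of those arrays, and not ActD, gave the shared difference was not tested.

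Cytoplasmic ribosomal protein genes, whose products build the ribosome and whose messages are long-lived, were lower with ActD at 5 min. The list counts 158 clones of 67 gene symbols, 4 of them pseudogenes. Their median change was -0.51 at 5 min, 0.09 at 30 min and 0.11 at 60 min, beside 0.00, -0.02 and -0.02 over all 7300 clones. At 5 min 135 of the 158 clones (85.4%) were below 0, as were 49.6% of all 7300, and 28 were lower and 0 higher by z-fold, beside 3.85% and 2.68% of all spots, so that these clones made up 19.3% of the 145 named clones lower by z-fold. Large subunit clones (103) had a median of -0.45 and small subunit clones (55) one of -0.55. Of 38 genes with at least 2 clones, 25 had every clone below 0.

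**Figure D2:**
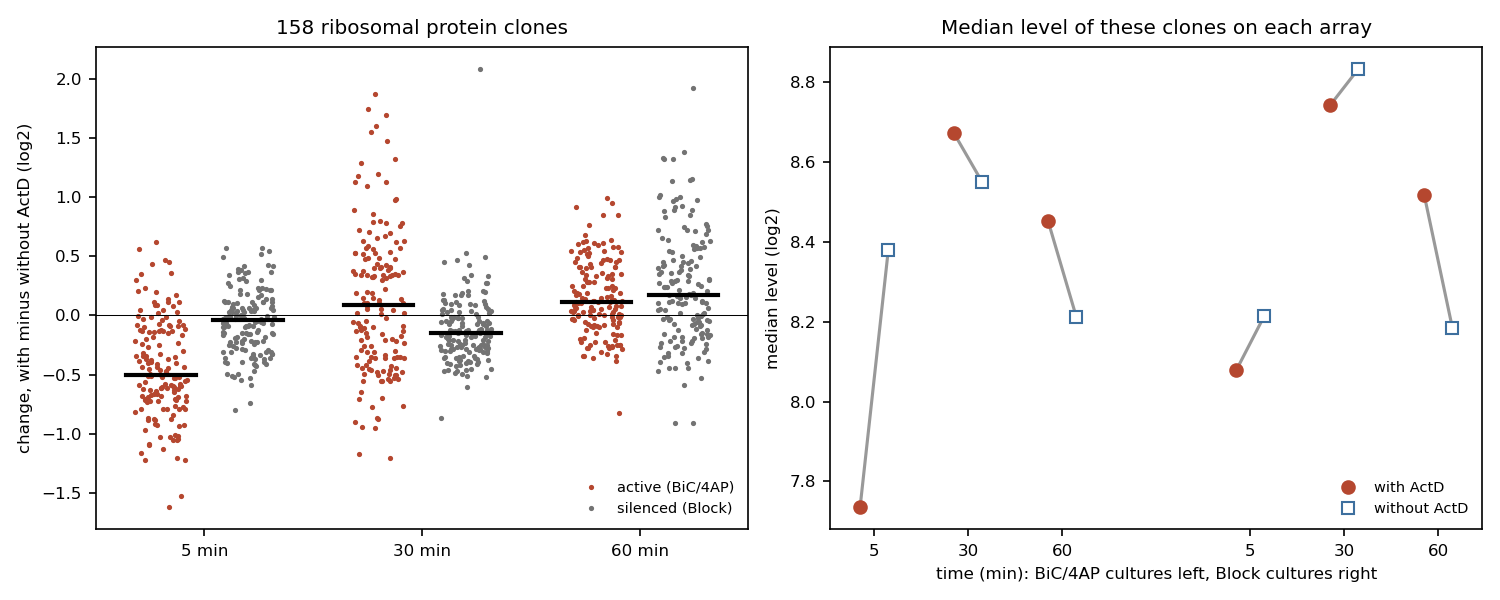
Left, change with minus without ActD (log2) of each of 158 ribosomal protein clones by time, in active and silenced cultures, with black bars at the medians. Right, their median level (log2) on each of the 12 arrays against time in min. The array of BiC/4AP + ActD at 5 min has the lowest median level of all 12, 7.74.

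The median level of these clones on each array shows where the difference arose. It was 7.74, 8.67 and 8.45 in BiC/4AP + ActD at 5, 30 and 60 min, against 8.38, 8.55 and 8.21 in BiC/4AP. In silenced cultures it was 8.08, 8.74 and 8.52 with ActD, against 8.21, 8.83 and 8.18 without. The array of BiC/4AP + ActD at 5 min was thus the low one, and it held the lowest of the 6 active values for 100 of the 158 clones (63.3%), against 1481 of all 7300 (20.3%). The pair at 5 min in silenced cultures had a median change of -0.04.

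RPL41, which encodes the smallest ribosomal protein, was the clearest case. Its 3 clones had a median of 7.73, 9.41 and 8.69 in BiC/4AP + ActD at 5, 30 and 60 min, against 9.07, 8.92 and 8.94 in BiC/4AP, and their changes at 5 min were -1.62, -1.52 and -0.87. Both clones of RPL19, of RPL31 and of RPS19 were past the threshold at 5 min as well, with median changes of -1.06, -1.21 and -0.90. RPL3 had 3 of 11 clones lower past it at 5 min and 8 of 11 higher past it at 30 min, where its median was 8.63 with ActD, against 7.41 without. RPS19 kept a negative value at 30 min (-0.42) and had 0.69 at 60 min, so the members differed among themselves after 5 min.

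Most ribosomal clones are bright, and among the 1460 brightest named clones 97 of them had a median change of -0.58 at 5 min, where the other 1363 clones had 0.15. Of the 97, 82 were below 0. Several of the very brightest were above it, such as clones of RPS16 (mean log2 intensity 13.3, change 0.35) and RPL14 (12.9, 0.20). The dimmer RPL14 clones had -0.73 and -0.44, and a bright RPS2 clone (11.9) had -0.05. The median change of all ribosomal clones at 5 min lay between -0.51 and -0.39 under the 6 scalings. Some other abundant messages, picked for their values, lay on the same side. Both clones of TMSB4X, which encodes the actin-binding thymosin beta 4, were lower past the threshold, as were 2 of 3 clones of the ubiquitin gene UBB and 3 of 9 clones of the elongation factor EEF1A1 (-0.63). By contrast, 58 clones of mitochondrial ribosomal proteins, a set added after the values were seen, had a median of 0.02 with 25 below 0.

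In the test of change with time no ribosomal clone passed. The fitted change of the ActD effect over the span of 5 to 60 min was above 0 with an unadjusted p under 0.05 for 17 of the 158 clones (10.8%), where 2.33% of all spots were, and below 0 for 0. Their median slope was 0.64 log2 over that span, beside -0.01 for all named clones. The lowest adjusted p among them was 0.9919.

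Immediate early genes, the first that neurons transcribe when they fire, had medians near 0 as a group. The list has 33 clones of 25 genes above the limit, of 31 that are on the array. Their median change was 0.07 at 5 min, -0.10 at 30 min and 0.01 at 60 min, and 0 had an unadjusted p under 0.05 in limma (0 adjusted). In 3 of 3 pairs 2 clones were lower (6.06%) and 3 higher (9.09%), beside 8.08% and 7.08% of all spots. Past the z-fold threshold were 0 clones at 5 min, 1 lower and 2 higher at 30 min (all spots 4.22% and 5.44%), and 1 lower at 60 min (2.68%).

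**Figure D3:**
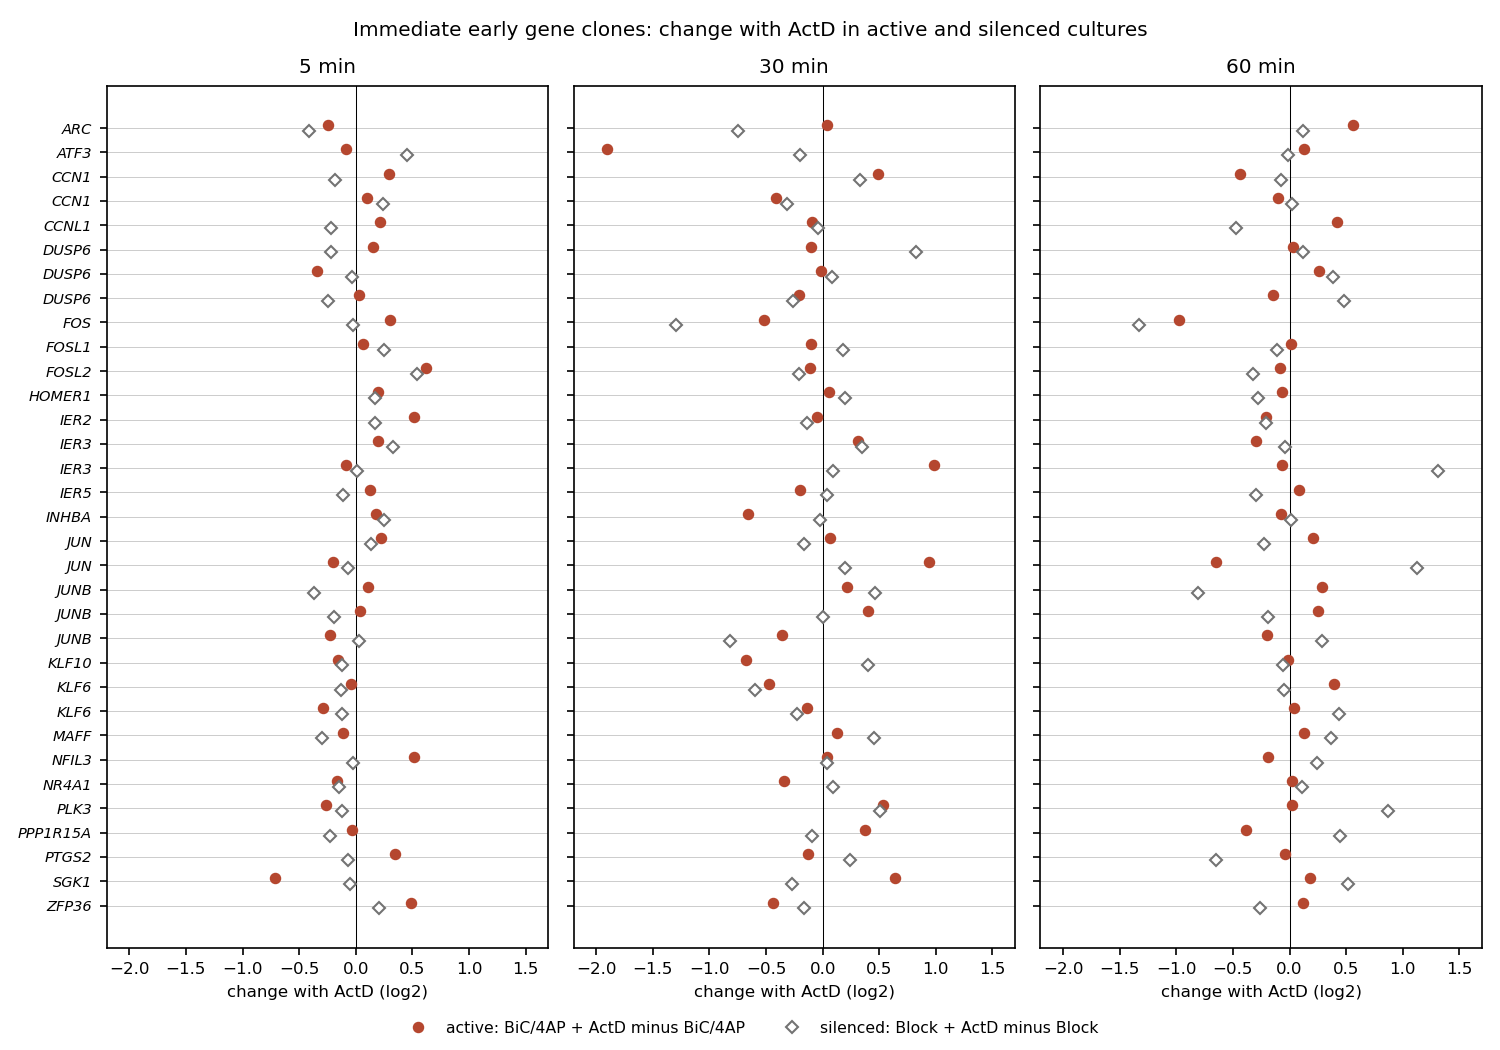
Change with ActD (log2, horizontal axis) of each of the 33 immediate early gene clones at 5, 30 and 60 min, with filled circles for active cultures (BiC/4AP + ActD minus BiC/4AP) and open diamonds for silenced cultures (Block + ActD minus Block). FOS lies below 0 in both at 30 and 60 min, and the ATF3 clone is at -1.90 at 30 min in active cultures, from a dim reading with ActD (raw 14.79).

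FOS, a subunit of the AP-1 transcription factor with a very short-lived mRNA, was lower with ActD at the later times. Its level was 6.15, 5.86 and 5.60 in BiC/4AP + ActD at 5, 30 and 60 min, against 5.85, 6.38 and 6.57 in BiC/4AP. The values with ActD thus stood in falling order over time and those without it in rising order, with changes of 0.30, -0.52 and -0.98 and a z-fold of -1.94 at 60 min. The slope of the change was -1.26 ± 0.53 log2 over the span of 5 to 60 min (SE, unadjusted p = 0.0591, limma, adjusted p = 0.9919). In silenced cultures FOS had 6.29, 5.15 and 5.38 in Block + ActD, against 6.31, 6.44 and 6.71 in Block. It was lower with ActD there at 30 and 60 min as well, with changes of -1.29 and -1.33, and the difference between the active and the silenced effect was 0.48 ± 0.46 (SE, unadjusted p = 0.331, limma). Without ActD, FOS in BiC/4AP minus FOS in Block was -0.46, -0.06 and -0.14 at 5, 30 and 60 min, and the same difference for ARC was -0.01, -0.63 and -0.20. So neither gene read higher in BiC/4AP than in Block at any of these times, from 1 array of each. They do not stand for the whole list, whose members went either way. HOMER1 had 0.31, 0.20 and 0.05 and NR4A1 had 0.13, 0.11 and 0.04, whereas a KLF6 clone had -0.06, -0.19 and -0.36.

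The other AP-1 members gave no common direction. ATF3, a stress-induced factor of the ATF family, had 5.89, 3.79 and 5.10 in BiC/4AP + ActD, against 5.98, 5.70 and 4.97 in BiC/4AP. The low value at 30 min made it the most negative of the list, with a z-fold of -3.08, and its changes at 5 and 60 min were -0.09 and 0.13. That value is a dim reading, raw 14.79. It lies within 95% (up to 18.8) of the mostly dim unlisted spots that close each block of spots on that array. JUN was spotted as a pair of clones that disagreed: one had changes of 0.23, 0.07 and 0.20 and the other of -0.20, 0.94 and -0.65. Of the 3 JUNB clones, 2 were higher and 1 lower in 3 of 3 pairs, none by more than 0.40 in any pair.

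The further members of the list named here were mixed in sign. ARC, which regulates glutamate receptors at the synapse, had changes of -0.25, 0.04 and 0.56. HOMER1, a postsynaptic scaffold protein, had 0.20, 0.06 and -0.07, and the nuclear receptor NR4A1 had -0.17, -0.34 and 0.02. KLF10, a zinc finger factor, was lower in 3 of 3 pairs (-0.16, -0.67 and -0.01), and IER3 had 1 clone at 0.99 at 30 min, where its other clone had 0.32. SGK1, a kinase induced by stress and by activity, had -0.71 at 5 min and 0.64 at 30 min.

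Transcripts known to decay fast had, as a list, medians near 0. Their 56 clones of 40 genes, 12 of which are also immediate early genes, had median changes of 0.00, 0.00 and -0.02 at 5, 30 and 60 min. Lower in 3 of 3 pairs were 7 clones (12.5%, all named clones 8.14%), and higher in 3 of 3 were 5. The 7 were clones of BTG1, ID3, ID4, JUNB, KLF10, MAFG and TSC22D1. ID3, an inhibitor of basic helix-loop-helix factors, had changes of -0.15, -0.58 and -0.18, and BTG1, an antiproliferative protein, -0.03, -0.37 and -0.33. MDM2, the ubiquitin ligase that removes p53, was higher in 3 of 3 pairs with changes of 0.40, 0.32 and 0.44, and its fitted change of 0.38 ± 0.18 (SE, 3 pairs) had an unadjusted p of 0.0725 in limma. In silenced cultures MDM2 had -0.33, 0.61 and 0.07. The 18 clones of p53 target genes, of which MDM2 is 1, had medians of 0.12, 0.20 and -0.04.

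The genes with the best agreement between pairs were mostly dim and had modest changes. Chosen by the smallest p among clones lower in 3 of 3 pairs, they were led by PRAF2, a membrane protein of the secretory pathway, with 5.86, 4.77 and 5.00 in BiC/4AP + ActD at 5, 30 and 60 min, against 6.26, 5.62 and 5.52 in BiC/4AP. Its fitted change was -0.59 ± 0.19 log2 (SE, 3 pairs, unadjusted p = 0.0229, limma). DPM1, the catalytic subunit of the enzyme that makes dolichol-phosphate mannose for protein glycosylation, had 4.60, 4.92 and 4.97 with ActD, against 5.08, 5.41 and 5.51 without. Those 3 differences were nearly equal, -0.48, -0.49 and -0.54, but the other clone of DPM1 had 0.21, -0.24 and -0.02. GLYATL1 (fitted change -0.47), the leukotriene B4 receptor LTB4R (-0.58), ITFG2 (-0.45), EMC8 of the endoplasmic reticulum membrane complex (-0.68), the mitochondrial ribosomal protein gene MRPL28 (-0.42), WRAP53 (-0.75), the p38 kinase MAPK13 (-1.64) and the proteasome assembly factor PSMG3 (-0.43) followed, all with an adjusted p of at least 0.99996.

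WRAP53, which carries telomerase RNA to Cajal bodies, had the widest gap at 60 min among these 10 clones. Its level was 6.97, 4.23 and 3.81 in BiC/4AP + ActD, against 6.98, 4.88 and 5.40 in BiC/4AP, so both groups overlapped over the times while the gap within a pair was -0.02, -0.66 and -1.58. ITFG2 was 1 of few with a second clone that agreed, with changes of -0.22, -0.62 and -0.51 for one clone and -0.17, -0.56 and -0.12 for the other.

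**Figure D4:**
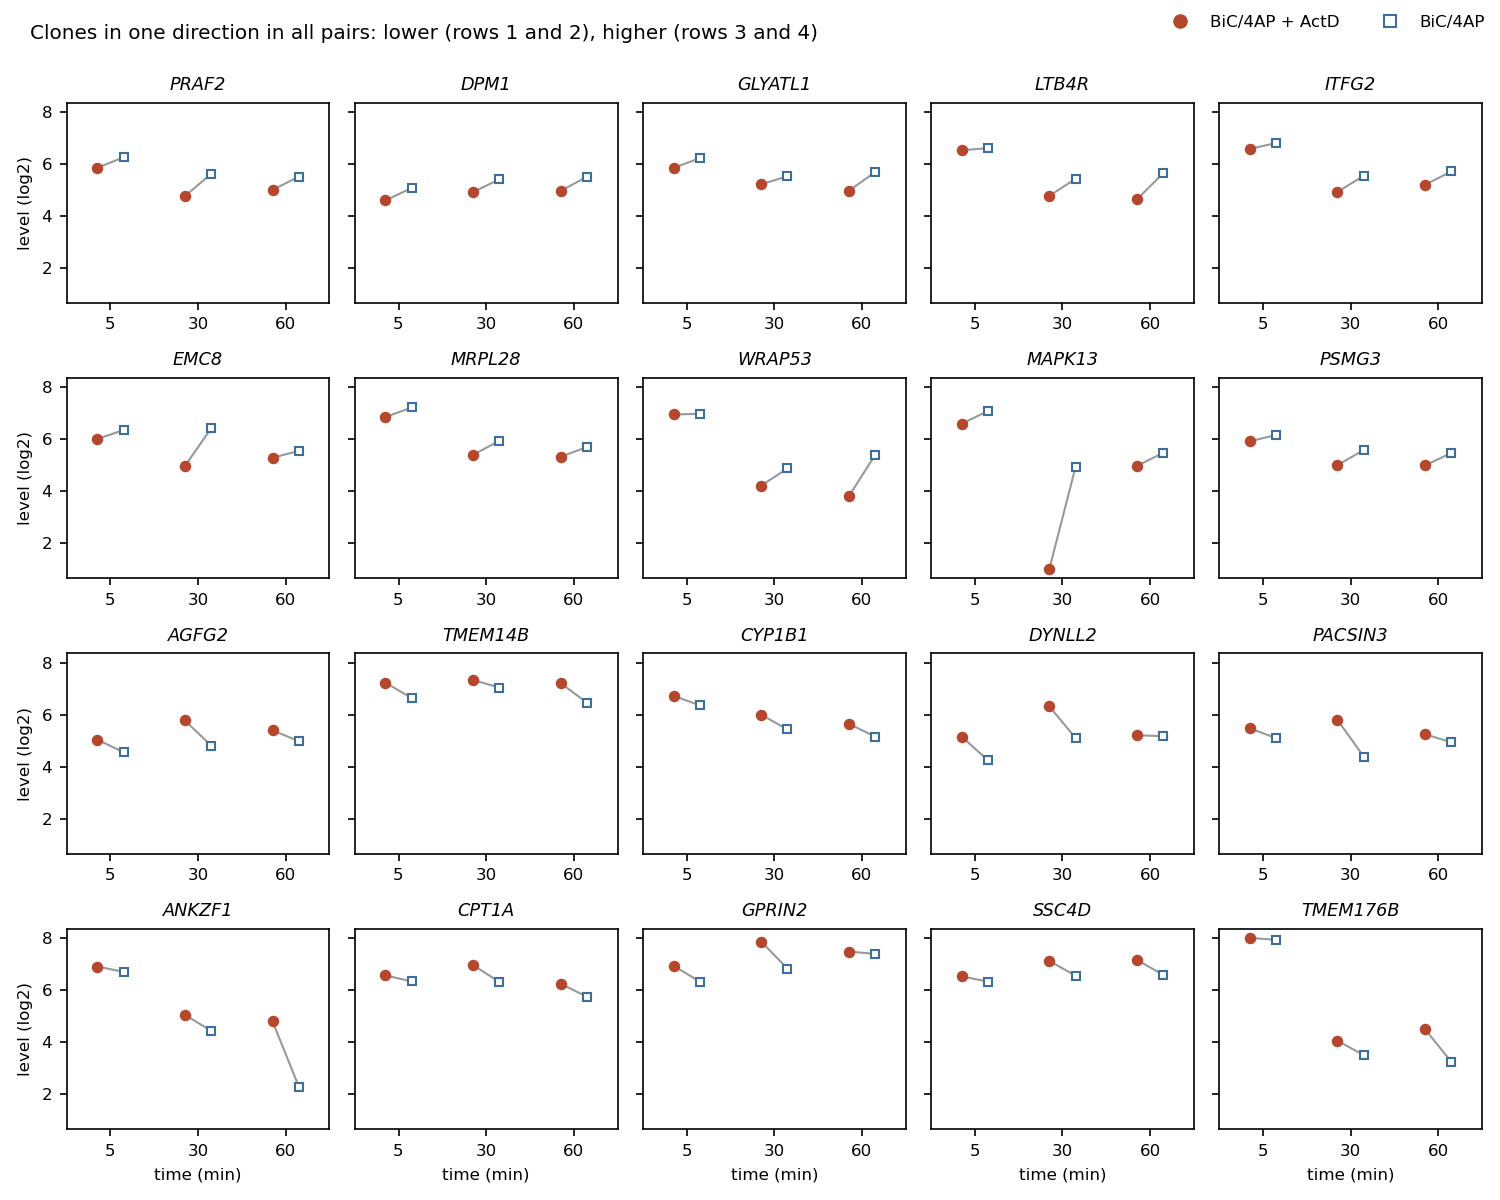
Levels (log2) against time in min of the 20 clones with the smallest p among those lower (upper 2 rows) or higher (lower 2 rows) with ActD in 3 of 3 pairs, with filled circles for BiC/4AP + ActD, open squares for BiC/4AP and a line joining each pair. For WRAP53 and TMEM176B the levels differ more between times than within any pair.

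Higher in 3 of 3 pairs, AGFG2, which carries an Arf GTPase-activating domain, came first, with 5.05, 5.78 and 5.40 in BiC/4AP + ActD, against 4.56, 4.82 and 4.99 in BiC/4AP. All 3 values with ActD were above all 3 without, and the fitted change was 0.62 ± 0.20 (SE, 3 pairs, unadjusted p = 0.0226, limma). The other AGFG2 clone, a brighter spot, had changes of -0.89, 0.32 and -0.16. TMEM14B followed with 7.24, 7.34 and 7.22 with ActD, against 6.65, 7.05 and 6.47 without, and these groups did not overlap either (fitted change 0.55 ± 0.19, SE). CYP1B1, a cytochrome P450 that oxidises steroids and foreign compounds, had changes of 0.36, 0.56 and 0.49. CPT1A, which brings fatty acids into mitochondria, had 0.24, 0.64 and 0.50, and DYNLL2, a dynein light chain, 0.92, 1.22 and 0.04. PACSIN3 (fitted change 0.70), ANKZF1 (1.11), the neurite outgrowth gene GPRIN2 (0.58), SSC4D (0.45) and TMEM176B (0.63) made up the rest. The ANKZF1 value includes a dim reading, raw 4.21 in BiC/4AP at 60 min. Of the 9 other clones of all 20 genes, 6 had a fitted change in the same direction.

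The largest changes at single times come from 1 array against 1. At 5 min the lowest z-folds belonged to ASH1L-AS1, listed as an antisense RNA (level 6.37 with ActD, against 8.76 without), MRPL40, a mitochondrial ribosomal protein gene (5.94 against 8.31), the RPL41 clones named above and CXADR, a cell adhesion receptor (9.18 against 10.66). MRPL40 stood out through its BiC/4AP reading, since its other 5 values lay between 5.73 and 6.43. Highest at 5 min were UCP3, FBXL18, ERO1A, the growth factor gene NRG4 and the signalosome subunit COPS6, whose level was 11.06 with ActD, against 10.07 without. None of these 10 clones had its lower reading within 95% of the unlisted spots that close each block of 25 spots, most of which are dim.

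At 30 min the lowest were MAPK13 (level 1.01 with ActD, against 4.94 without), the haem transporter SLC48A1 (2.92 against 5.23), CRBN (5.50 against 7.79), the histone gene H3C8 (5.68 against 7.80) and the kinesin KIF12 (4.56 against 6.65). CRBN encodes cereblon, the substrate receptor of a ubiquitin ligase. The raw reading of MAPK13 with ActD was 2.22, below the median of 7.45 of those unlisted spots on that array, and its other clone had a change of -0.02. Highest were APOC2 (5.38 against 2.41), MMUT, the methylmalonyl-CoA mutase (8.98 against 6.68), the endocytic GTPase RAB35 (6.89 against 4.62), SLC61A1 (10.06 against 7.83) and the proteasome subunit PSMD11 (7.93 against 5.77). Apart from APOC2 these readings lay above those of 95% of the unlisted spots, and in silenced cultures each of the 4 had a change of 1.44 to 1.87 at 60 min, as the group of 257 above did.

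At 60 min the lowest were ZBED10P (4.28 with ActD, against 8.36 without), the ATP synthase subunit ATP5F1E (2.38 against 5.03), MOAP1 (3.97 against 5.91), LAS1L (5.29 against 7.09) and WRAP53. The raw reading of ZBED10P with ActD was 16.2, beside a median of 25.2 over the 12 arrays, and LAS1L had 33.5 beside 42.5. Both stood out more through their BiC/4AP readings. The highest were the replication factor MCM10 (6.04 against 1.08), ZNF426 (6.74 against 3.35), ANKZF1 (4.81 against 2.30), the importin KPNA4 (5.64 against 3.48) and the membrane-binding annexin ANXA2 (5.52 against 3.60). At this time 5 of the 10 leading clones had a lower reading within 95% of those unlisted spots on its array, as 3 of 10 did at 30 min and 0 of 10 at 5 min. The raw reading of MCM10 in BiC/4AP was 1.73, and its brighter second clone had a change of -0.28. Position on the membrane moved with the change at this time, since the median over the named clones above the limit ran from 0.23 to -0.23 between the first and the last 10% of the spot order. Its part in the single clones was not tested beyond the corrected counts above.

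The test of a change of the ActD effect with time used all 12 arrays, which share 1 estimate of spread, and passed 0 of 9600 spots. With an unadjusted p under 0.05 in limma there were 165 named clones, 23 with a negative and 142 with a positive slope, beside 1.28% and 2.33% of all spots (3.61% in either direction). Smallest p among the positive ones were MRPL40 (3.03 ± 0.55 log2 over the span, SE, unadjusted p = 0.00228), ANKZF1 (2.35), RPL9 (1.91), ZNF426 (3.66) and the imprinted gene MEST (1.58). MRPL40 stood out by its BiC/4AP reading at 5 min, as given above. In BiC/4AP at 60 min the raw readings of ANKZF1 and ZNF426 were 4.21 and 9.06, within 95% of the unlisted spots. RPL9, of the large ribosomal subunit, had changes of -0.91, -0.10 and 0.99, and 3 of its 4 other clones had a slope of the same sign. Negative slopes were led by ZBED10P (-4.22), LRTOMT (-1.71), WRAP53 (-1.57), TM4SF4 (-1.37) and the chitinase-like CHI3L2 (-1.27). ZBED10P stood out by its BiC/4AP reading at 60 min, as given above. The 165 clones are 2.26% of the named clones, a smaller share than the 3.61% of all spots. Positive slopes, that is, changes that were lower early than late, outnumbered negative ones over all spots too. The median slope of all named clones was -0.01.

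Whether ActD acted differently in active and silenced cultures was tested over all 12 arrays. The difference of both effects passed in 0 of 9600 spots, and 65 named clones had an unadjusted p under 0.05 in limma, 38 with a lower and 27 with a higher effect in active cultures, beside 0.74% and 1.27% of all spots (2.01% in either direction). AGFG2 had the smallest p, with a mean change of 0.62 in active cultures and -0.62 in silenced ones, a difference of 1.24 ± 0.24 (SE, unadjusted p = 0.00113, adjusted p = 0.999). PI3, an inhibitor of elastase, ZYX, an adaptor of focal adhesions, the lipid raft protein FLOT1 and the proton pump subunit ATP6V1D were the next higher, with differences of 0.69, 0.81, 0.65 and 0.81. Lower were PFKM, the muscle isoform of phosphofructokinase, with -0.69, SERPINF1 with -0.69, RANGAP1, which drives nuclear transport, with -0.79, the methionyl-tRNA synthetase MARS1 with -0.74 and C2orf15 with -0.66. For PFKM the changes in active cultures were -0.30, -0.29 and -0.51, against 0.19, 0.50 and 0.27 in silenced cultures, and its other clone had a difference of 0.41. Of 8 other clones of these 10 genes 2 had a difference in the same direction.

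Changes at the same time correlated weakly between the states. Across the 7300 clones the Spearman correlation between active and silenced cultures was 0.329 at 5 min, 0.166 at 30 min and -0.132 at 60 min. The spread of changes over named clones (SD) was 0.345, 0.458 and 0.307 log2 in active cultures, against 0.248, 0.337 and 0.432 in silenced cultures. Changes of active cultures lay within 0.5 log2 of 0 for 85.9% of the named clones at 5 min, 77.9% at 30 min and 92.0% at 60 min.

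**Figure D5:**
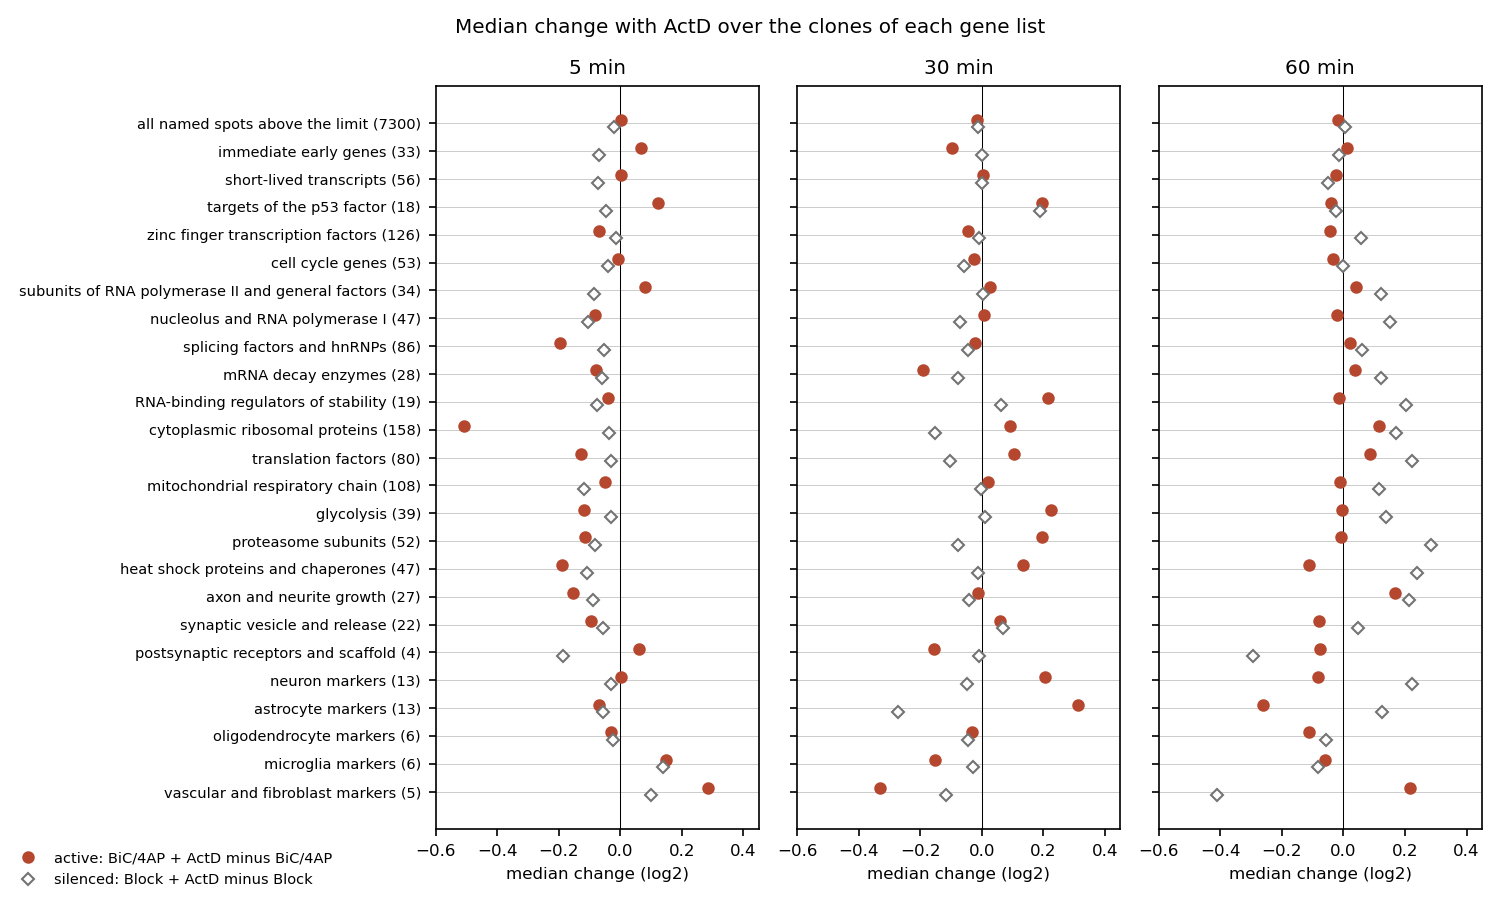
Median change with ActD (log2) over the clones of each gene list (number of clones in brackets) at 5, 30 and 60 min, with filled circles for active and open diamonds for silenced cultures. The ribosomal proteins at 5 min, at -0.51, lie farther from 0 than any other list at any time in active cultures.

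The other gene lists lay closer to 0, the farthest being vascular and fibroblast markers with a median of -0.33 at 30 min, and 0 clones of any list had an unadjusted p under 0.05 over the pairs in limma (0 adjusted). Genes of the machinery that ActD acts on were among them. Subunits of RNA polymerase II and its general factors (34 clones) had medians of 0.08, 0.03 and 0.04, with 0 clones lower and 3 higher (8.82%) in 3 of 3 pairs, beside 8.08% and 7.08% of all spots. POLR2I, a subunit of that polymerase, had 0.92 at 5 min, then -0.06 and 0.02. Genes of the nucleolus and RNA polymerase I (47 clones), the polymerase most sensitive to ActD in cells, had -0.08, 0.01 and -0.02.

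RNA processing and translation genes leaned lower at 5 min. Splicing factors and hnRNPs (86 clones) had medians of -0.20, -0.02 and 0.02, with 58 clones (67.4%) below 0 at 5 min, beside 49.6% of all named clones. HNRNPF, which binds G-rich RNA, had -0.47, -0.59 and -0.19. Translation factors (80 clones) had -0.13, 0.10 and 0.09, and EEF1B2, an elongation factor subunit, -0.43, -0.45 and -0.02. Enzymes of mRNA decay (28 clones) had -0.08, -0.19 and 0.04, led by LSM1 of the cytoplasmic decapping complex with -1.43 at 30 min, and RNA-binding regulators of stability (19 clones) had -0.04, 0.22 and -0.02.

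Metabolic and stress genes had a common order over the times. Medians at 5, 30 and 60 min were -0.12, 0.22 and 0.00 for glycolysis (39 clones), -0.11, 0.19 and -0.01 for the proteasome (52 clones), -0.19, 0.13 and -0.11 for heat shock proteins and chaperones (47 clones), and -0.05, 0.02 and -0.01 for the respiratory chain (108 clones). Each was lowest at 5 min and highest at 30 min, as the tubulins and GAPDH were. This order was not particular to metabolic and stress genes. Translation factors, RNA-binding regulators of stability and synaptic vesicle genes had it too. PSMD6, a proteasome subunit, had -0.58, 1.48 and 0.84. Zinc finger transcription factors (126 clones) had -0.07, -0.04 and -0.04, with 14 clones lower (11.1%) and 4 higher (3.17%) in 3 of 3 pairs, beside 8.08% and 7.08% of all spots. Cell cycle genes (53 clones) had -0.01, -0.03 and -0.04.

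Neuronal genes were few above the limit. Genes of axon and neurite growth (27 clones) had medians of -0.15, -0.01 and 0.17, and GAP43, the growth cone protein, had -0.38, 1.10 and 0.36. CRMP1, which regulates growth cone collapse, had -0.92, -0.42 and 0.59. Synaptic vesicle and release genes (22 clones) had -0.10, 0.06 and -0.08, with 5 lower (22.7%) and 1 higher (4.55%) in 3 of 3 pairs, beside 8.08% and 7.08% of all spots. The 4 clones of postsynaptic receptors and scaffolds had 0.06, -0.16 and -0.08.

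Markers of the cell types that these cultures could hold were read to check the label. Of 21 neuron markers 10 were above the limit, among them TUBB3, SNAP25 and GAP43 but not MAP2 or RBFOX3, and their 13 clones had a mean level of 6.58 to 6.74 in BiC/4AP + ActD, against 6.36 to 6.72 in BiC/4AP. Of 18 astrocyte markers 9 were above it, GFAP included, at 7.07 to 7.16 with ActD, against 6.80 to 7.22 without. The neuron and astrocyte levels were both lowest in BiC/4AP at 30 min, and their median changes at that time were 0.21 and 0.31. Oligodendrocyte (4 genes of 14), microglia (6 of 15) and vascular or fibroblast markers (4 of 18) had ranges of mean level of 7.15 to 7.41, 7.94 to 8.03 and 8.91 to 9.01 with ActD, against 7.18 to 7.37, 7.81 to 8.09 and 8.78 to 8.94 without. Levels of different clones are not comparable with each other, and in bulk RNA a lower share of a cell type and less RNA per cell cannot be told apart. The part of cell makeup in the results above was not tested.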

How the data were processed

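RNA was hybridised to 12 nylon membranes, and the 6 arrays of active cultures were compared. The authors deposited raw spot intensity from a phosphorimager scan, not normalized, in 1 table, and a second deposited table of intensity was identical to it in 115200 of 115200 values. Other columns of per-sample values numbered 0. The labels give 3 µg of RNA for each array, whereas the methods give another amount, pooled over experiments. Spots were named through the platform's annotation. Under this match the ribosomal clones exceeded all spots by 1.96 log2, against 0.27 under the other index column. Of 5545 genes, 5097 share a symbol with rat RefSeq.

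The log2 intensity of each array was turned into z-scores, the study's normalization, and multiplied by the mean SD (2.15), with a common level of 6.46 added for printing. No background was subtracted. The form of the z-fold, the difference divided by its SD over all 9600 spots, was assumed. limma 3.58.1 in R 4.3.3 was fitted with time as a block to the 6 arrays (2 residual degrees of freedom), or to all 12 for the slope and for active minus silenced cultures. Benjamini-Hochberg adjustment ran over 9600 spots, with a threshold of 0.05. The fits were tested on simulated data. Single times have 1 array per condition and no test. Lists are described by counts and medians.

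Clones named are the 10 of smallest p per direction among those that agreed in 3 of 3 pairs, the 5 largest z-folds per direction and time, the 5 of smallest p per direction in the other tests, and up to 4 per list (10 for immediate early genes and short-lived transcripts). Genes outside this rule are described as chosen after their values were seen, as are the further immediate early gene clones. The members and lists were chosen with earlier results of these data known. Alternatives were other scalings, an offset, filters, other samples in the fit and leaving out each pair. Cyclic loess and a correction for spot order were added after the data were seen. Spots with several symbols or none were fitted but not named, and 8 named clones have a reading of exactly 10, a recurring low value. The number of arrays limits the precision.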

Additional observations from a re-analysis of the deposited data

Results flagged for a closer look

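For 14 of the named clones all 3 active pairs lay on one side of 0 and all 3 silenced pairs on the other, which is what singled them out. The active-minus-silenced difference of the ActD effect was 1.24 for AGFG2, 0.69 for PI3, 0.81 for ZYX, 0.65 for FLOT1, 0.61 for SSC4D, 0.63 for the respiratory chain subunit NDUFV2 and 0.48 for CPT1A, whose silenced mean was -0.02. It was -0.69 for PFKM, -0.69 for SERPINF1, -0.79 for RANGAP1, -0.74 for MARS1, -0.66 for C2orf15, -0.54 for UBE2C, a ubiquitin-conjugating enzyme of mitosis, and -0.43 for the chaperone HSPA4. The share of all named clones with this pattern is not given here, so the count itself cannot be judged. The difference itself was tested in limma. Many of these clones had been named for a small p in this same test or for agreement over the active pairs. The p-values are therefore no separate support. Unadjusted p-values ran from 0.00113 for AGFG2 to 0.0559 for HSPA4, and the adjusted p was 0.999 for each of the 14.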

How the results depend on the processing

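The 3 tests in limma passed 0 spots under every setting run, with 50 to 309 spots at an unadjusted p under 0.05 for the fit over pairs, 250 to 464 for the slope and 137 to 254 for active minus silenced cultures. The settings were 5 other scalings for each test, the fit to named spots or to all 12 arrays for the pairs, the 6 active arrays alone for the slope, and each time left out in turn, which was not run for the slope. Counts by z-fold moved. Higher and lower named clones at 5 min were 135 and 225 after quantile normalization, 398 and 665 with the 10th percentile added, and 430 and 679 with the SD taken over named spots alone, and higher ones were 53 after median centring and 50 after the spot order correction. At 30 min they were 500 and 402 with the 10th percentile added and 492 and 391 with the SD over named spots, and higher ones were 171 after quantile normalization. At 60 min they were 568 and 376, and 569 and 359, under those settings, and higher ones were 66 after quantile normalization and 54 after the spot order correction. The SD over named spots is smaller than that over all spots (0.345 against 0.579 log2 at 5 min), so that the threshold stands for a smaller change, and the cause of the other shifts was not tested.

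Medians of the fitted change over the pairs moved by more than their spread between pairs for a few lists. After quantile normalization the median was 0.0168 for short-lived transcripts and 0.0185 for polymerase II subunits. Leaving out each pair in turn gave medians of -0.0411 to 0.0071 for short-lived transcripts, -0.0532 to -0.0320 for zinc fingers, -0.0237 to 0.0126 for cell cycle genes, 0.0175 to 0.0558 for polymerase II subunits, -0.0048 to 0.0570 for nucleolar genes, -0.127 to 0.0772 for synaptic vesicle genes and -0.00023 to 0.0815 for oligodendrocyte markers. No paired analysis was possible because all labels carry the same replicate number, beyond the pairs by time that the fit already holds.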
